A study of Rattus norvegicus with 16 samples.

Results

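Semaphorins and ephrins are cell guidance signals, and plexins and Eph receptors are the receptors that read them. The 39 genes described here are those members of the 4 families that the array measured with a probe set annotated to a single gene: 16 semaphorins, 5 plexins, 11 Eph receptors and 7 ephrins, out of 14324 genes so annotated. They were chosen by symbol (Sema followed by a number, or a symbol starting with Plxn, Epha, Ephb, Efna or Efnb), and each is represented by its probe set with the highest mean over all arrays. Of 51 genes with such symbols in the RefSeq annotation of the rat, the other 12 (Efna3, Epha4, Epha6, Ephb4, Plxna1, Plxna4, Plxnb1, Plxnc1, Sema3g, Sema4b, Sema4d and Sema6a) are not analysed here.

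RNA was taken from hearts of 2-day-old rats of 2 strains, and 1 Affymetrix Rat Gene 1.0 ST array was run per sample. The Hypertrophic Heart Rat (HHR), whose heart size is labelled hypertrophic, is set against the Normal Heart Rat (NHR), labelled normal. Each strain gave 4 females and 4 males, all pups with no treatment named, killed with an overdose of pentobarbitone and sampled without pooling. HHR is a model in which hypertrophy is inherited through many genes, so the comparison is between genetic backgrounds and not of a single allele; nothing says which pups were littermates, and effects of litter cannot be told apart from those of strain.

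The design text speaks of ventricles dissected from the atria and a protocol in the labels of the whole heart. Actc1, the cardiac actin of heart muscle, averaged 14.24 in HHR and 14.22 in NHR on the log2 scale. It was among the 3 of 8 cardiomyocyte markers that did not pass the test. Myh6, Myh7, Tnni3, Ryr2 and Myl2 were lower in HHR (differences of -0.26 to -0.14). These values do not settle which tissue was taken. In whole tissue, fewer cells of a type and less RNA per cell cannot be told apart, and a sequence variant under a probe cannot be told apart from a change in RNA. Markers of several cell types differed between the strains. Over all single-gene entries 11.8% were called higher in HHR and 11.2% lower, and no marker list was tested against these shares. Of 5 measured atrial markers 3 were higher in HHR, of 5 lymphatic markers 3, of 7 fibroblast markers 3 and of 5 epicardial markers 2, with none lower. Of 8 cardiomyocyte markers 5 were lower and 0 higher, and of 7 endothelial markers 4 were lower and 1 higher. Of 6 mural markers 1 was lower (Myh11, -0.33) and 0 higher. Of 6 leukocyte markers C1qb was higher (0.38) and Ptprc lower (-0.27), and of 3 erythroid markers Hbb was higher (0.45) and Epb42 lower (-0.55). None of 7 neural and Schwann cell markers passed the test. The mean level of the atrial list ran between 10.39 and 11.31 in the HHR arrays and between 9.85 and 10.61 in the NHR arrays. That list includes Sln, which ran from 7.79 to 10.50 in HHR and from 7.57 to 9.69 in NHR. Sln did not pass the test (limma adjusted p = 0.54). For the lymphatic list the span was 9.47 to 9.66 in HHR and 9.13 to 9.39 in NHR, and for the endothelial list 10.32 to 10.44 in HHR and 10.41 to 10.56 in NHR. The fibroblast list ran from 10.82 to 11.14 in HHR and from 10.66 to 10.94 in NHR, the epicardial list from 7.64 to 7.94 in HHR and from 7.31 to 7.76 in NHR, and the cardiomyocyte list from 13.27 to 13.39 in HHR and from 13.36 to 13.51 in NHR. The part of these shifts in the results below was not tested. Array medians lay between 7.19 and 7.28. Once group means were removed, the main axis of variation among arrays (26.7% of it) spread the NHR arrays to both ends. NHR females 3 and 4 scored 14.4 and 15.1 and NHR male 4 scored 22.6, while NHR females 1 and 2 scored -16.9 and -12.6 and NHR males 1 and 2 scored -11.1 and -13.2. NHR male 3 scored 1.74, and the HHR arrays lay between -3.72 and 7.48. The arrays numbered 1 and 2 thus lay apart from most of those numbered 3 and 4 in NHR of both sexes, and no label says what the numbers stand for. Results are also given without the 3 high NHR arrays where that changes a call.

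Semaphorins are ligands with a sema domain. Class 3 members are secreted and act through neuropilins, which bind the ligand, and plexins, which signal by acting on small GTPases. Classes 4 to 6 span the membrane and bind plexins directly. Eph receptors are receptor tyrosine kinases read out on contact between cells: A-type ephrins are held in the membrane by a lipid anchor, B-type ephrins span it, and both can signal back into the cell that carries them. In the mouse embryo these systems guide cardiac neural crest cells into the outflow tract, pattern vessels and sympathetic nerves of the heart, and set the boundary between arteries and veins.

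HHR hearts had more RNA of the secreted semaphorins Sema3c and Sema3d, of the receptor Ephb2 and of the B-type ephrin Efnb1. They had less of Sema4c and of another B-type ephrin, Efnb3. Over the 39 genes, 6 rose in HHR (Sema3a, Sema3c, Sema3d, Ephb2, Ephb3 and Efnb1), 4 fell (Sema4c, Sema6c, Plxna2 and Efnb3) and 29 did not pass the test (limma with Benjamini-Hochberg adjustment over all 27342 probe sets, threshold 0.05). Over all single-gene entries 11.8% were called higher and 11.2% lower. The 10 genes called are 25.6% of the 39, against 23.1% of all 14324 single-gene entries and 20.7% of all probe sets, so the families as a whole were called about as often as the rest of the array. The median difference of the 39 was -0.01 and the median size 0.09 on the log2 scale, against -0.02 and 0.09 over all single-gene entries. In 3 genes (Sema3c, Sema3d and Ephb2) all 8 HHR arrays lay above all 8 NHR arrays, as in 1.95% of all probe sets. In 1 gene, Efnb3, all 8 lay below, as in 2.20% of all probe sets. Without the 3 NHR arrays that stood apart, 5 rose and 3 fell. The 4 genes called lower became 2 after centring each array on its median, and also without HHR female 3, NHR female 3 or NHR male 1.

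**Figure D1:**
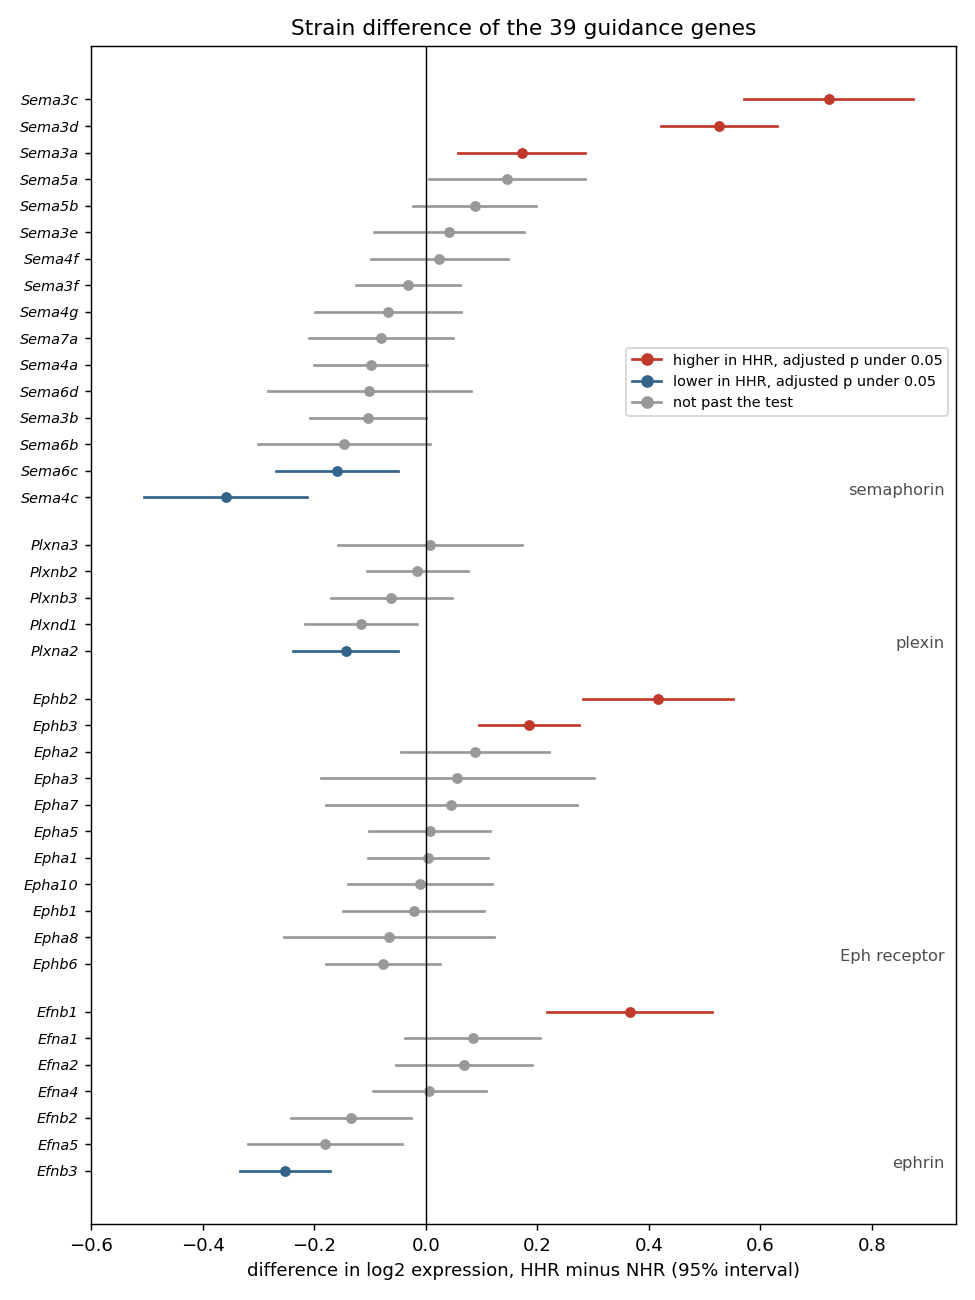
Difference in log2 expression between HHR and NHR (x axis, HHR minus NHR, mean of both sexes) for each of the 39 genes, grouped by family, with points for estimates and lines for 95% intervals from the moderated fit. Red marks the 6 genes higher and blue the 4 genes lower in HHR at an adjusted p under 0.05; Sema3c and Sema3d lie farthest from 0.

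Among the secreted ligands, Sema3c rose most. In the mouse it draws cardiac neural crest cells into the outflow tract, where it signals through neuropilins with Plxna2 or Plxnd1. Its lowest, median and highest values were 8.42, 8.70 and 8.86 in HHR, against 7.78, 7.90 and 8.15 in NHR. The groups did not overlap, and the nearest arrays were HHR female 4 and NHR male 2. The mean was 8.67 ± 0.15 in HHR and 7.95 ± 0.14 in NHR (SD, n = 8 each), a 1.65-fold rise (log2 difference 0.72, SE 0.07, limma adjusted p = 4.5e-06). Without the 3 NHR arrays apart the difference was 0.66 (adjusted p = 1.5e-04).

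Sema3d, a secreted semaphorin that in the mouse guides endothelial cells and is needed for the normal connection of the pulmonary veins, gave 9.31, 9.39 and 9.48 (lowest, median, highest) in HHR. The NHR arrays gave 8.77, 8.83 and 9.10. Again every HHR array lay above every NHR array, and NHR male 2, at 9.10, was the highest of NHR, with the next at 8.91. The means of 9.39 ± 0.06 in HHR and 8.86 ± 0.11 in NHR (SD, n = 8 each) differ 1.44-fold (log2 difference 0.53, SE 0.05, limma adjusted p = 2.3e-06), the smallest adjusted p among the 39.

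Sema3a, which repels sympathetic axons and shapes the innervation of the mouse heart, rose less. It ran from 7.82 through a median of 7.93 to 8.07 in HHR and from 7.64 through 7.71 to 7.97 in NHR. The ranges overlapped: only 2 of 8 HHR arrays exceeded NHR male 2, the highest of its strain. The difference was 0.17 (SE 0.05, limma adjusted p = 0.0328; mean 7.92 ± 0.09 in HHR and 7.75 ± 0.11 in NHR, SD, n = 8 each). This call was lost without any 1 of 10 arrays, namely HHR female 2 or 4, HHR male 3 or 4, NHR female 1, 2 or 4, and NHR male 1, 3 or 4, with adjusted p between 0.0543 and 0.0709 and differences of 0.15 to 0.17. Leaving out the 3 NHR arrays together also ended it (0.18, adjusted p = 0.0607).

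The other secreted semaphorins did not pass. Sema3e, which binds Plxnd1 without a neuropilin, differed by 0.04 (adjusted p = 0.696) and had values of 5.57 to 6.15 in HHR against 5.77 to 5.93 in NHR, so the HHR arrays spread to both sides of NHR. Sema3b differed by -0.10 (adjusted p = 0.151) and Sema3f, a ligand of neuropilin 2, by -0.03 (adjusted p = 0.655).

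**Figure D2:**
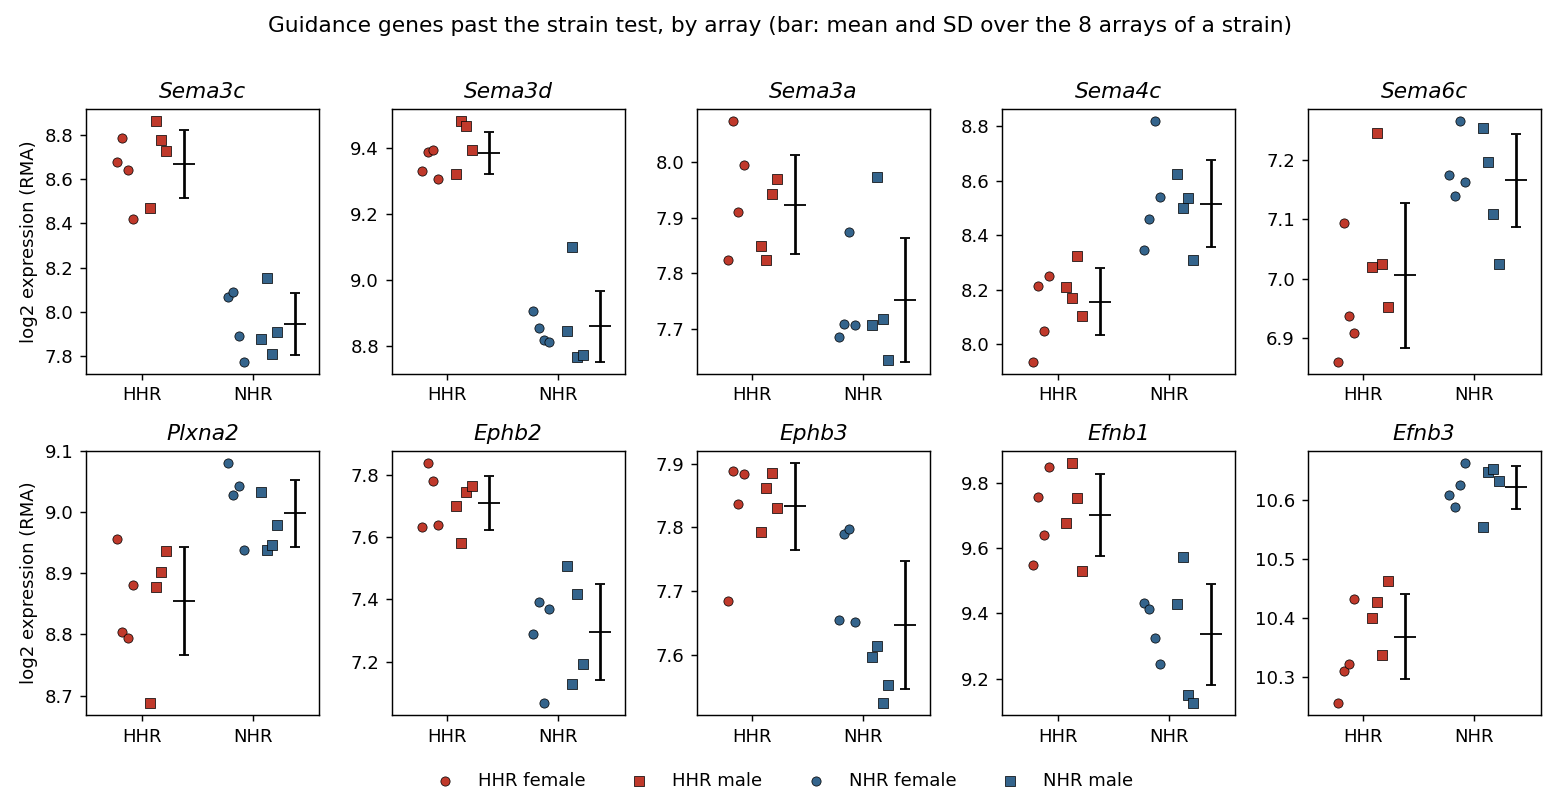
Log2 expression (y axis, each panel with its own scale) of the 10 genes past the strain test on every array, HHR in red and NHR in blue, circles for females and squares for males, with the mean and SD of the 8 arrays of a strain beside them. HHR and NHR do not overlap in Sema3c, Sema3d, Ephb2 and Efnb3 and overlap in the other 6.

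Sema3c, Sema3e, Sema3a and Sema3d lie in that order in a stretch of rat chromosome 4 in the RefSeq assembly GRCr8, with no protein-coding gene between Sema3a and Sema3d. Between Sema3c and Sema3e lie 4 protein-coding genes, and between Sema3e and Sema3a 12. The 12 are not among the measured genes below. The plot of differences by gene order shows the measured genes within this stretch and 3 on either side, taken by position. All 13 had a difference above 0, from 0.01 to 0.72, but those of Gnat3, Sema3e, Grm3 and Dmtf1 were smaller than their standard errors. Of the 13, 7 passed the test, all higher in HHR. Besides the 3 semaphorins these were Gnai1, a G protein subunit (0.38, limma adjusted p = 0.00227), the fatty acid transporter gene Cd36, which has near-copies in the rat genome (0.49, adjusted p = 9.3e-05), Cacna2d1, a calcium channel subunit (0.22, adjusted p = 6.5e-04), and Crot, a peroxisomal carnitine acyltransferase (0.51, adjusted p = 5.0e-07). Hgf, which encodes hepatocyte growth factor, differed by 0.20 (adjusted p = 0.102) and Pclo by 0.09 (adjusted p = 0.35). Without the semaphorins, for which the stretch was chosen, 4 of 9 genes were called, against 11.8% of all single-gene entries called higher in HHR. The neighbours were added after values were seen, so these shares describe the stretch and are no test of it. Dmtf1, between Grm3 and Crot in this order, had a mean level of 9.14 and differed by 0.03 (adjusted p = 0.759). Sema3e, Grm3 (0.01, adjusted p = 0.935), Gnat3 (0.05, adjusted p = 0.696), Pclo and Hgf averaged 5.90, 5.29, 5.35, 5.88 and 6.47. These means lie below the 40th percentile of the whole table (6.57), so these genes may carry no signal. Neither the sign nor the size of their differences can then be read. Whether the stretch as a whole differs between the strains was not tested.

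**Figure D3:**
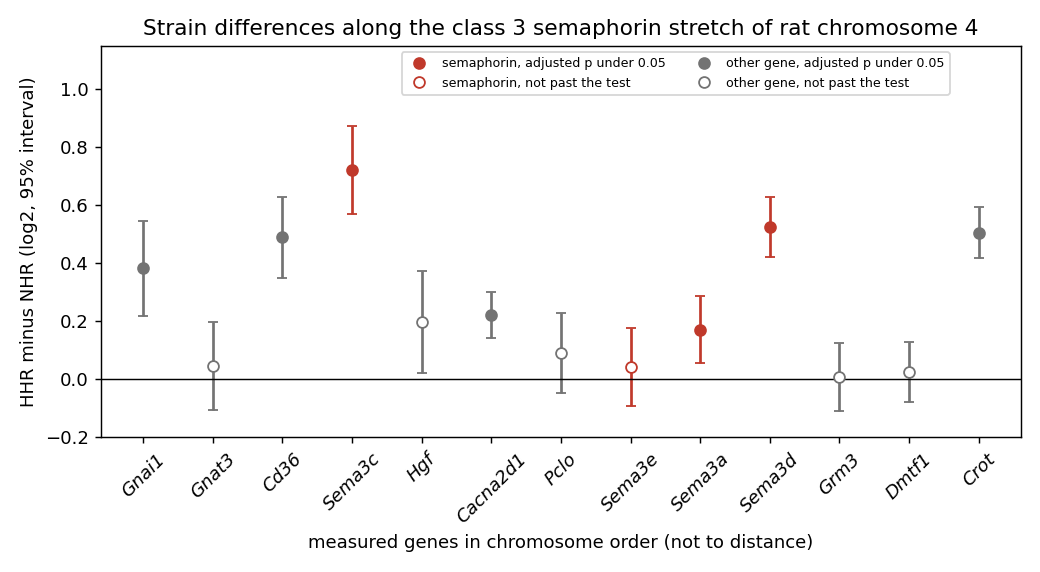
Difference in log2 expression, HHR minus NHR, with 95% intervals (y axis) for 13 measured genes in their order along rat chromosome 4 (x axis, by rank and not by distance), semaphorins in red and others in grey, filled where the adjusted p is under 0.05. Sema3c and Sema3d stand at 0.72 and 0.53. Sema3e, Grm3, Gnat3, Pclo and Hgf have mean levels below 6.57, the 40th percentile of the whole table, and may lack signal.

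Promoter windows from RefSeq (GRCr8, 250 bases before to 50 after the annotated start) were available for 33 of the 39 genes. Those of the gene with the largest rise, Sema3c, and the largest fall, Sema4c, are shown, together with that of Sema3d, added after its values were seen because it moved with Sema3c. Capitals mark matches on either strand to 4 short motifs, none of which overlap here. The first, known from GATA factors, is AGATAA. The second, the box named after its letters, is CCAAT. The GC box was searched as GGGCGG. The last, the core of the TATA box, was TATAAA. In the mouse, Gata6 is known to activate Sema3c in cardiac neural crest.
Sema3c: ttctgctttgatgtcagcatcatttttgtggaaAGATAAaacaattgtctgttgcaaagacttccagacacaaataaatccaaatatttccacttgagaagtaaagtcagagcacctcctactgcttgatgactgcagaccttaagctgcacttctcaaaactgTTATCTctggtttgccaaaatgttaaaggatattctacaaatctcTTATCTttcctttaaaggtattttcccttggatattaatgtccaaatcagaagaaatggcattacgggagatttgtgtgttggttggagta
Sema3d: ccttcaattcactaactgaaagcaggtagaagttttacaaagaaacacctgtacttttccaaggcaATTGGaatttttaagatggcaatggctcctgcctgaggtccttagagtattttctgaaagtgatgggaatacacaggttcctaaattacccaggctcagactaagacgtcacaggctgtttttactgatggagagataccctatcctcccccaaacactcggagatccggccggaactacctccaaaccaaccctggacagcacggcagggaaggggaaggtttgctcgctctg
Sema4c: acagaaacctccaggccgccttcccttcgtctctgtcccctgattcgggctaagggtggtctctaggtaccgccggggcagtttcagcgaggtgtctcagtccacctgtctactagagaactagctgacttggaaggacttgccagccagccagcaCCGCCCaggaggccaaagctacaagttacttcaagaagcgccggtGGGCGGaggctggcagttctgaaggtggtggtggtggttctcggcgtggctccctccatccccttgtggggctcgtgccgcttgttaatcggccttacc
The Sema3c window (chr4:18699578-18699877, minus strand) is 36.3% G and C with 1 CG dinucleotide, and holds AGATAA in 3 places, at -217 on the gene's strand and at -86 and -41 on the other. At least 1 such match is found in 11.6% of the 33469 promoter windows of the table, and at least 3 in 0.0956%. The Sema3d window (chr4:23460922-23461221, minus strand; 47.3% G and C, 6 CG) has 1 match to CCAAT, found at least once in 37.5% of windows, and none to AGATAA. The Sema4c window (chr9:46297949-46298248, minus strand) has 60.3% G and C, 15 CG and 2 GC boxes; at least 1 GC box is found in 33.1% of windows. No TATAAA was in these 3 windows, as against 14.2% of all windows with one. The median window has 51.7% G and C and 7 CG. A match of letters is not a site shown to be used. The windows come from the reference assembly and not from HHR or NHR, so they hold nothing on a difference between the strains. The shares of windows were not matched for base content. Whether GATA factors take part in the rise of Sema3c was not tested.

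Of the membrane-bound semaphorins, 2 fell and 0 rose, against 11.2% of all single-gene entries called lower and 11.8% called higher. Sema4c, a transmembrane ligand of Plxnb2, ran from 7.94 through a median of 8.19 to 8.32 in HHR, against 8.31, 8.52 and 8.82 in NHR. Only HHR male 3 lay above the lowest NHR array, NHR male 4. The means of 8.16 ± 0.12 in HHR and 8.52 ± 0.16 in NHR (SD, n = 8 each) gave a log2 difference of -0.36 (SE 0.07, limma adjusted p = 0.00161), 1.28-fold lower. A second probe set of Sema4c fell as well, by 0.29 (SE 0.06, adjusted p = 0.00175), with all 8 HHR arrays (6.51 to 6.88) below all 8 NHR arrays (6.90 to 7.17). Sema4c is the one gene of the 39 with more than 1 probe set annotated to a single gene.

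Sema6c, a transmembrane semaphorin of the class that binds A-type plexins, had values of 6.86, 6.99 and 7.25 in HHR and of 7.02, 7.17 and 7.27 in NHR. HHR male 2 lay among the highest NHR arrays, while 5 HHR arrays were below the lowest of NHR. The difference was -0.16 (SE 0.05, limma adjusted p = 0.0364). It did not pass after quantile normalization (adjusted p = 0.106), cyclic loess (0.132) or median centring (0.0898), or with the 3 NHR arrays left out (-0.17, adjusted p = 0.0696). Nor did it pass without any 1 of 10 arrays: HHR female 1, 3 or 4, HHR male 1, 3 or 4, NHR female 3 or 4, or NHR male 1 or 2 (adjusted p between 0.0501 and 0.0765, differences of -0.16 to -0.14).

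The remaining 8 membrane-bound semaphorins differed by -0.15 to 0.14 and did not pass. The largest was Sema6b (-0.15, adjusted p = 0.169), a transmembrane ligand of A-type plexins. Sema5a, whose extracellular part carries thrombospondin repeats, differed by 0.14 (adjusted p = 0.137), with 4 HHR arrays higher than any of NHR and NHR male 4 lowest at 10.01. Sema5b differed by 0.09 (adjusted p = 0.263), Sema4f by 0.02 (0.817) and Sema4g by -0.07 (0.479). Sema4a, a transmembrane semaphorin that can bind Plxnd1, differed by -0.10 (adjusted p = 0.159) and passed only without NHR male 2 (-0.13, adjusted p = 0.0484). Sema6d, which in the chick acts on the growth of the ventricular wall, differed by -0.10 (0.446), and Sema7a, a lipid-anchored semaphorin that acts through integrins, by -0.08 (0.387).

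Of 5 plexins, 1 fell and 0 rose (20% called, against 23.1% of all single-gene entries). Plxna2, a neuropilin partner that marks migrating cardiac neural crest in the mouse, gave 8.69, 8.88 and 8.96 in HHR, against 8.94, 9.004 and 9.08 in NHR. Only HHR female 1 lay above the lowest NHR array. It fell by 0.14 (SE 0.04, limma adjusted p = 0.0302; mean 8.85 ± 0.09 in HHR and 8.998 ± 0.05 in NHR, SD, n = 8 each). The call was lost with median centring (-0.12, adjusted p = 0.0871) and with the 3 NHR arrays left out (-0.16, adjusted p = 0.0534). It was also lost without any 1 of HHR female 2 or 3, HHR male 1, NHR female 1 or 3, or NHR male 1 (adjusted p between 0.0508 and 0.0649, differences of -0.14 to -0.12).

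Plxnd1, the plexin of endothelial cells, ran from 10.59 to 10.74 in HHR and from 10.57 to 10.88 in NHR, so that the HHR range lay within that of NHR. Its difference of -0.12 (SE 0.05, adjusted p = 0.0952) did not pass with all arrays. It passed without NHR male 4, the lowest NHR array (-0.14, adjusted p = 0.0323), with the 3 NHR arrays left out (-0.17, adjusted p = 0.0242), after quantile normalization (-0.14, adjusted p = 0.0462), after cyclic loess (-0.14, adjusted p = 0.0372) and with array weights (-0.16, adjusted p = 0.0128). Plxnb2, the receptor of Sema4c, differed by -0.02 (adjusted p = 0.839; 95% interval -0.11 to 0.07). Plxnb3, a receptor of Sema5a, differed by -0.06 (adjusted p = 0.429) and Plxna3, a receptor of class 3 semaphorins with neuropilins, by 0.01 (adjusted p = 0.962).

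Among the Eph receptors, 2 of 11 rose and 0 fell (18.2% called, against 23.1% of all single-gene entries). Both are of the B type. Ephb2, a kinase that binds B-type ephrins, had 7.58, 7.72 and 7.84 (lowest, median, highest) in HHR and 7.07, 7.33 and 7.51 in NHR. The strains did not overlap, and NHR male 1 came nearest to the HHR arrays. Its mean of 7.71 ± 0.09 in HHR against 7.29 ± 0.15 in NHR (SD, n = 8 each) was 1.33-fold higher (log2 difference 0.42, SE 0.06, limma adjusted p = 2.8e-04). Epha8, which lies close to Ephb2 on chromosome 5 with 3 protein-coding genes between them, differed by -0.07 (adjusted p = 0.648).

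Ephb3, another kinase for B-type ephrins, ran from 7.68 through 7.85 to 7.89 in HHR and from 7.52 through 7.63 to 7.80 in NHR. HHR female 1 and HHR male 1 lay within the NHR range, and the other 6 HHR arrays above it. The gene rose by 0.19 (SE 0.04, limma adjusted p = 0.00509; mean 7.83 ± 0.07 in HHR and 7.65 ± 0.10 in NHR, SD, n = 8 each). Of the other B-type receptors, Ephb6, which lacks kinase activity, differed by -0.08 (adjusted p = 0.287) and Ephb1 by -0.02 (adjusted p = 0.842).

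None of the 7 A-type receptors passed, and their differences lay between -0.07 and 0.09, in Epha8 and Epha2. Epha3, which in the mouse is needed for the endocardial cushions, had the largest SD of the 39 in HHR (0.29, against 0.21 in NHR, where Epha8 had 0.22), and ran from 8.30 to 9.12 in HHR and from 8.33 to 8.99 in NHR. Its difference of 0.06 had a 95% interval of -0.19 to 0.30. Epha7 varied almost as much (8.54 to 9.21 in HHR, 8.58 to 9.12 in NHR; difference 0.05, adjusted p = 0.809). Epha1, Epha5 and Epha10 differed by 0.00, 0.01 and -0.01.

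The B-type ephrins moved in both directions. Efnb1, a transmembrane ligand of Ephb2 and Ephb3 that is found on the lateral membrane of mouse cardiomyocytes, gave 9.53, 9.72 and 9.86 in HHR, against 9.12, 9.37 and 9.57 in NHR. HHR male 4 and HHR female 1 lay below the highest NHR array, NHR male 2, and the other 6 above it. The means of 9.70 ± 0.13 in HHR and 9.34 ± 0.15 in NHR (SD, n = 8 each) differ 1.29-fold (log2 difference 0.37, SE 0.07, limma adjusted p = 0.00158). Without the 3 NHR arrays apart the rise was 0.30 (adjusted p = 0.0183). Its level ran against the axis on which those arrays stand out (r = -0.68 over 16 arrays, group means removed); the part of that axis in the result was not tested further.

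Efnb3, a transmembrane ephrin best known from the midline of the nervous system, fell. Its values of 10.26, 10.37 and 10.46 in HHR all lay below those of NHR, at 10.55, 10.63 and 10.66. The NHR arrays were tight (SD 0.04, n = 8), and the difference was -0.25 (SE 0.04, limma adjusted p = 2.5e-04; means 10.37 and 10.62), 1.19-fold lower. Efnb2, the ephrin that marks arteries, ran from 8.91 to 9.06 in HHR and from 8.999 to 9.28 in NHR, with 5 HHR arrays below the lowest of NHR. Its difference of -0.13 (SE 0.05, adjusted p = 0.0727) did not pass, but it did without NHR female 1 (-0.15, adjusted p = 0.0454), with array weights (-0.17, adjusted p = 0.024) and with dim probe sets left out (adjusted p = 0.0499).

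Of 4 lipid-anchored ephrins none passed. Efna5 had 8.60, 8.93 and 9.10 in HHR and 8.97, 9.03 and 9.19 in NHR, with HHR female 4 and HHR male 4 lowest. Its difference was -0.18 (SE 0.07, adjusted p = 0.0607). It passed in 8 of 26 alternatives, among them without HHR female 1 (-0.21, adjusted p = 0.0323) and without HHR male 1 (-0.20, adjusted p = 0.0474). Efna1 differed by 0.08 (adjusted p = 0.332), Efna2 by 0.07 (0.442) and Efna4, a near neighbour of Efna1 on chromosome 2, by 0.01 (0.952). Over the 29 genes not past the test, the largest difference was 0.18 in size, and the 95% interval lay within 0.3 of 0 in 26 of them. Of those 29, 7 (Epha1, Epha5, Ephb1, Plxnb3, Sema3e, Sema4f and Sema4g) never exceeded the 40th percentile and may lack signal, so their intervals limit no difference in RNA. Of the other 22, 19 had such an interval.

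The same strain comparison was made in each sex. In males 5 of the 39 genes rose and 1 fell, against 2.37% of single-gene entries called higher and 2.09% lower (4.46% in all). In females 4 rose and 3 fell, against 7.06% called higher and 6.54% lower (13.6% in all). All 10 genes called over both sexes differed in the same direction in males and females, and 5 of them passed in both (Sema3c, Sema3d, Ephb2, Efnb1 and Efnb3). The strain test averages the sexes, so the genes it calls tend to share a sign, and their shared sign is no separate support. Over all 39 genes, 28 had the same sign in males and females. Sema3c differed by 0.77 in males (limma adjusted p = 2.9e-04) and by 0.68 in females (adjusted p = 7.4e-04), and Sema3d by 0.55 and 0.51. Ephb3 passed in males (0.27, adjusted p = 0.0173) and not in females (0.10, adjusted p = 0.309), and Sema4c passed in females (-0.43, adjusted p = 0.00968) and not in males (-0.29, adjusted p = 0.105). Such a split does not show that the sexes differ. The interaction, tested in limma, gave 0 calls among the 39 and over all probe sets, and 0 of the 39 had an unadjusted p under 0.05. The lowest was 0.0533 for Epha5 and the next 0.061 for Ephb3. The count in males was 3 without any 1 of HHR male 1, 2 or 3 or NHR male 3 or 4, and the count in females was 4 without the 3 NHR arrays apart.

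**Figure D4:**
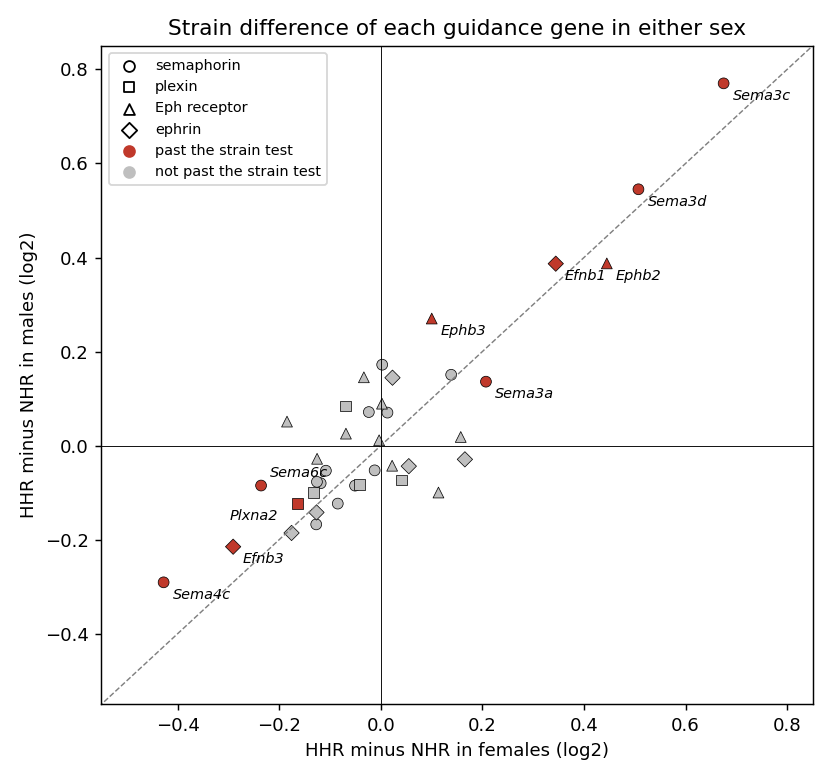
Strain difference (HHR minus NHR, log2) of each of the 39 genes in females (x axis) and in males (y axis), with the dashed line marking equal differences and symbols giving the family. The 10 genes past the strain test (red) lie in the quadrants where both sexes have the same sign. That test averages the sexes and so favours genes of equal sign. Sema3c is highest at 0.68 in females and 0.77 in males.

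Males were also set against females over both strains. None of the 39 genes passed (limma), against 0.0140% of single-gene entries, and 2, named after their values were seen, had an unadjusted p under 0.05. Sema4g differed by -0.15 (male minus female; unadjusted p = 0.0233, adjusted p = 0.761) and Efna1 by 0.13 (unadjusted p = 0.0391, adjusted p = 0.766).

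Receptors and signalling partners outside the 4 families were described from lists chosen with earlier results of these data known. Over all single-gene entries 23.1% were called, 11.8% higher and 11.2% lower in HHR. Of 7 neuropilins and co-receptors 1 rose and 1 fell, with a median difference of -0.02. Nrp2, the neuropilin that binds Sema3c and Sema3f, fell by 0.23 (SE 0.07, limma adjusted p = 0.0409), with 0 HHR arrays below the lowest NHR array. Nrp1, the neuropilin of Sema3a, differed by -0.11 (adjusted p = 0.0552). Ptk7, a receptor-like co-receptor of planar polarity, rose by 0.15 (adjusted p = 0.0346). Of 20 genes of semaphorin and plexin signalling 4 rose and 3 fell (median 0.04). Mical3, one of the flavin monooxygenases that bind plexins and oxidise actin, fell by 0.40 (SE 0.07, adjusted p = 8.8e-04, 7 of 8 arrays below all of NHR). Farp1, a guanine nucleotide exchange factor that interacts with A-type plexins, rose by 0.26 (adjusted p = 0.00755, 8 of 8 arrays above all of NHR). Cfl1, the actin-severing cofilin, rose by 0.18 (adjusted p = 0.00803).

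Of 16 genes of Eph and ephrin signalling 2 rose and 2 fell (median 0.00). Chn2, a chimaerin that switches off Rac, rose by 0.35 (SE 0.07, limma adjusted p = 0.00295), and Grip1, a scaffold that binds the tails of B-type ephrins, by 0.13 (adjusted p = 0.0393). The phosphatase Acp1 (-0.18, adjusted p = 0.00821) and the exchange factor Kalrn (-0.18, adjusted p = 0.0144) fell. Of 17 genes of slit, netrin and related guidance 2 rose and 2 fell (median 0.02). Robo1, a slit receptor, rose by 0.37 (SE 0.05, adjusted p = 7.1e-05, 8 of 8 arrays above all of NHR), and its ligand Slit3 by 0.25 (adjusted p = 0.0155). Robo4, the endothelial member of the family (-0.20, adjusted p = 0.0155), and Flrt1 (-0.20, adjusted p = 0.00677) fell. In each of these 4 lists most genes did not pass, and no list was tested against the share called over all single-gene entries (23.1%).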

How the data were processed

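Hearts of 16 pups were measured on Affymetrix Rat Gene 1.0 ST arrays. The deposited values are log2 expression values per probe set made by the authors with RMA, which corrects background, normalizes between arrays and summarises probes; RMA and limma are named in the submitters' processing notes, without versions. All 16 value columns were used. With no background level to go by, low values may be dim signal or none. Of the 39 genes, 32 exceeded 6.57, the 40th percentile of the whole table, on 4 or more arrays.

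Probe sets were named from the platform annotation: 15097 carried 1 symbol, 323 several and 11922 none. All 39 symbols matched the RefSeq table (GRCr8), which was used for names, gene order and promoter sequence. Levels of different probe sets are not compared.

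A mean per group was fitted in limma 3.58.1 (R 4.3.3) to all 27342 probe sets and 16 arrays, with empirical Bayes moderation, 5 contrasts and Benjamini-Hochberg adjustment at 0.05. Differences are HHR minus NHR, with moderated standard errors and 95% intervals. The fit was run on simulated data with noise independent between genes and arrays. That check of the code held no axis shared by arrays and does not bear on whether the calls here hold. Nothing says that arrays of a group come from separate litters, so p-values measure the spread between these samples.

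The genes and lists were chosen with earlier results of these data known. All 39 are reported, and up to 4 genes past the threshold are named per pathway list, of which 1 is not reported here; Nrp1 and the chromosome 4 neighbours were added after values were seen. Alternatives are listed in the closing section.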

Additional observations from a re-analysis of the deposited data

Results flagged for a closer look

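In 8 of 156 groups of 4 arrays, 1 array of a gene stood farther from the others than the 95% limit of Dixon's test for 4 samples allows; chance flags about 1 in 20 such groups. NHR male 2 had 5.34 for Epha1, against 5.58 to 5.62 in the other NHR males. Epha10 was 6.46 in HHR male 2, against 6.66 to 6.68, and 6.79 in NHR female 2, against 6.49 to 6.52. Plxnb2 was 10.89 in HHR female 1, against 10.78 to 10.80, and Plxnb3 was 5.98 in NHR female 4, against 5.86 to 5.87. Sema3a was 7.87 in NHR female 3, against 7.69 to 7.71 in the other NHR females. Sema5b was 7.43 in NHR male 1, against 7.37 in the other NHR males, and Sema6b was 7.65 in HHR male 4, against 7.36 to 7.41.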

How the results depend on the processing

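The strain result was recomputed for up to 26 alternatives per gene. Of the 10 genes called, 7 (Sema3c, Sema3d, Sema4c, Ephb2, Ephb3, Efnb1 and Efnb3) passed in every one, and Plxna2, Sema3a and Sema6c were lost in at least 1. None turned its sign. Of the 29 genes not called, 4 passed in at least 1 alternative (Efna5, Efnb2, Plxnd1 and Sema4a), and 10 with differences near 0 turned their sign without passing. The number lower in HHR was 4, 2 with median centring, 7 with array weights and 2 at a threshold of 0.01. At 0.01 the count in males was 2 against 6, and 2893 probe sets were called against 5651. Median centring raised the share of calls higher in HHR from 46.6% to 56.3% over all probe sets. Without NHR female 3, NHR female 4 and NHR male 4, chosen after seeing the data, the count in females was 4 against 7. Leaving out 1 array at a time gave 7 to 10 genes called for strain, 5 to 6 higher and 2 to 5 lower, 4651 to 6402 probe sets, 3 to 6 genes in males and 5 to 8 in females, and 0 for sex and for the interaction. The cause of these shifts was not tested. The replicate numbers were not taken as pairing the arrays, since not every pair passed: deviations from the group mean correlated above 0.1 in 11 of 24 same-numbered pairs (-0.11 to 0.37), and in 2 of the 8 between strains within a sex. In NHR, females and males of numbers 1, 2 and 4 correlated at 0.37, 0.19 and 0.30, and those of number 3 at -0.11. Between strains within a sex, 5 of 16 arrays correlated best with their own number. With the replicate block 11 genes were called for strain, 6 higher and 5 lower, 6 in males, 7 in females, 0 for sex or the interaction, and 6145 probe sets; Efna5 was added (adjusted p = 0.0198). The deposited values come with no background level, so the 7 genes that did not exceed the 40th percentile on at least 4 arrays may lack signal.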
